A study of Homo sapiens with 3 samples.

Results

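The genes described are nuclear-encoded subunits of the mitochondrial respiratory chain and of ATP synthase. They were chosen by name from the array's own annotation: names that begin with NDUF and a subunit letter (complex I), SDHA to SDHD (complex II), UQCR (complex III), COX4 to COX8 (complex IV) and ATP5 (complex V). The rule took 86 of the 43316 genes on the array, measured by 117 probes. No expression value entered the rule, but the members were chosen with earlier results of these data known. By their names, 38 belonged to complex I, 4 to complex II, 9 to complex III, 17 to complex IV and 18 to complex V. A few matched names are no subunits. UQCRBP1 is a pseudogene, and ATP5S and ATP5SL were later renamed DMAC2L and DMAC2, the latter a factor for building complex I. NDUFA4 carries a complex I name and is now placed in complex IV. COX7A2L, counted in complex IV, is related to COX7A and is a factor for assembling supercomplexes, which are complexes joined together. The rule did not match NDUFAB1 of complex I and CYC1 of complex III, which are counted among other electron carriers below.

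Expression of mRNA was measured in 3 human cell lines on 1 Agilent single-colour array each. H1975 is a non-small cell lung cancer line with mutated EGFR, and it is the parent of the other two. OR1 and OR2 are osimertinib-resistant lines raised separately from H1975 under stepwise doses of osimertinib, an EGFR inhibitor, up to 2 μmol/L over 4 months. Each resistant line is a single derivation with 1 array, so differences between lines, between cultures and between arrays cannot be told apart.

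The respiratory chain sits in the inner mitochondrial membrane. Complex I takes electrons from NADH and complex II takes them from succinate. Both pass them to ubiquinone, complex III hands them to cytochrome c, and complex IV gives them to oxygen. The protons pumped along the way drive complex V, the ATP synthase. Most subunits are encoded in the nucleus, and a few hydrophobic core subunits of complexes I, III, IV and V are encoded in mitochondrial DNA. The core subunits carry the redox centres or the catalytic sites, while the supernumerary subunits surround them. Several complex IV subunits exist as a widely expressed form and a form restricted to muscle, lung or testis.

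The level of a gene is given below as its scaled intensity, the brightness of its brightest probe in multiples of the array's 75th percentile over all probes that are not controls. A ratio is the scaled intensity of OR1 or OR2 over that of H1975. The scanner software called 80 of the 86 members well above background on every array, and the remaining 6 on none. The technical SD of a member's log2 ratio, propagated from the software's error estimate for each spot, ran from 0.20 to 0.30 with a median of 0.20 in both lines. It covers the measurement of 1 RNA sample and not the spread between cultures. No test was possible with 1 array per line, and the number of arrays limits the precision. Levels are compared within a probe and never between genes. Values listed 3 at a time are those of H1975, OR1 and OR2 in that order, and ratios or medians given as a pair are those of OR1 and then OR2.

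All 4 keratins of the epithelial list were measured on the 3 arrays, and 2 of them were below 0.5 of H1975 in both resistant lines. So were EPCAM and CDH1, by far more than KRT19, whose ratios were 0.463 and 0.492. KRT8 stood at 60.6, 67.8 and 58.3 and KRT18 at 476, 421 and 384, while KRT7 stood at 835, 137 and 142 and KRT19 at 952, 441 and 469. EPCAM and CDH1, which join epithelial cells, stood at 0.037 and 0.020 times H1975 in OR1 and at 0.073 and 0.080 times in OR2. Of the 6 epithelial genes, 4 were at or below 0.5 in both lines, and the 3 measured mesenchymal genes did not share a direction. ZEB1 had ratios of 4.74 and 5.14, VIM 1.58 and 1.83, and FN1 0.735 and 0.205, and CDH2 was too dim to measure in all 3 lines. FN1 was itself dim, at 0.468, 0.344 and 0.096. The leukocyte marker PTPRC lay between 0.127 and 0.150, near the faintest measurable signal. PECAM1, of the same list, was also dim at 0.222, 0.466 and 0.265, with ratios of 2.10 and 1.19. The measured lung lineage genes did not share a direction in OR1. NKX2-1 had ratios of 0.252 and 1.365, NAPSA 0.770 and 1.565, and SFTPC 3.78 and 4.87, and SFTPB was too dim to measure. NAPSA and SFTPC were dim as well, at 0.236, 0.182 and 0.370 and at 0.153, 0.577 and 0.744. The part that these differences had in the values of the respiratory chain was not tested.

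The subunits of the respiratory chain stayed within 2-fold of the parental line almost throughout. In OR1, 0 of 80 measured members were at a ratio of 2 or above, where 9.17% of all genes tested were, and 0 were at 0.5 or below, where 9.58% of all genes were. In OR2, 0 members reached 2, against 7.72% of all genes, and 1 member, UQCRB, was at or below 0.5, against 8.7% of all genes. With a ratio of 1.5, 4 members (5%) were higher in OR1 against 20.2% of all genes, and 11 (13.8%) were lower against 18.7%. In OR2, 0 members were higher by 1.5 against 17.2% of all genes, and 14 (17.5%) were lower against 20.1%. Of these lower members, 8 were lower by 1.5 in both lines, and the share over all genes was not counted for this. All genes tested include those well above background on 1 side of a ratio only, unlike the 80 members. Of the 18589 genes measured on all 3 arrays, 1438 were at 2 or above and 1475 at 0.5 or below in OR1, and 1239 and 1245 in OR2. At 1.5 these were 3388 and 3118 in OR1, and 2947 and 3308 in OR2. Shares over genes of like brightness were not counted. The range over the 80 members was 0.505 to 1.98 in OR1 and 0.477 to 1.48 in OR2.

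Within that narrow range the members lay lower than H1975 more often than higher, and more so in OR2. The median ratio was 0.917 in OR1 and 0.841 in OR2, or -0.12 and -0.25 on the log2 scale, beside 0.03 and -0.05 over all 18589 genes measured on the 3 arrays. In OR1, 46 of 80 members were below H1975 and 28 of them by more than their technical SD, while 21 were above by more than theirs. As shares these are 57.5%, 35.0% and 26.2%, beside 47.7%, 33.1% and 36.5% of all genes. In OR2, 61 were below, 43 of them by more than their technical SD, while 9 were above by more than theirs. These are 76.2%, 53.8% and 11.2%, beside 53.9%, 38.4% and 32.2% of all genes. In all, 42 members were below H1975 in both lines and 15 above in both. Another 19 were above in OR1 and below in OR2, and 4 were the other way. Over the 18589 genes the same numbers, in this order, were 7404, 7108, 2611 and 1466. The lines share the H1975 array, so the counts for both are not independent of each other.

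The lower median in OR2 moved with brightness. Respiratory chain genes are among the bright genes of the array, and 77 of the 80 measured members were at 10 or more times the 75th percentile. Over the 4238 other genes as bright as that, the log2 medians were 0.01 and -0.14. Taking a running median over genes of like brightness off each ratio, an alternative chosen after seeing the data, left medians of -0.12 and -0.06, with 47 and 48 of 80 members below H1975. Quantile normalization gave -0.03 in both lines, with 43 and 46 members below. Scaling on spike-in RNA shifted the median of all genes in OR1 to -0.56 and put 76 of 80 members below H1975 there. Under each scaling run, and with normexp background correction, more members lay below H1975 than above it. They numbered 43 to 76 of 80 in OR1 and 46 to 62 of 80 in OR2, and the size of the shift depended on the scaling. As shares these are 53.8% to 95.0% and 57.5% to 77.5%, beside 44.3% to 82.2% and 48.6% to 55.2% of all genes. The 95.0% in OR1 under spike-in scaling stood beside 82.2% of all genes. Under quantile normalization the shares were 53.8% and 57.5%, beside 46.9% and 49.4%.

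**Figure D1:**
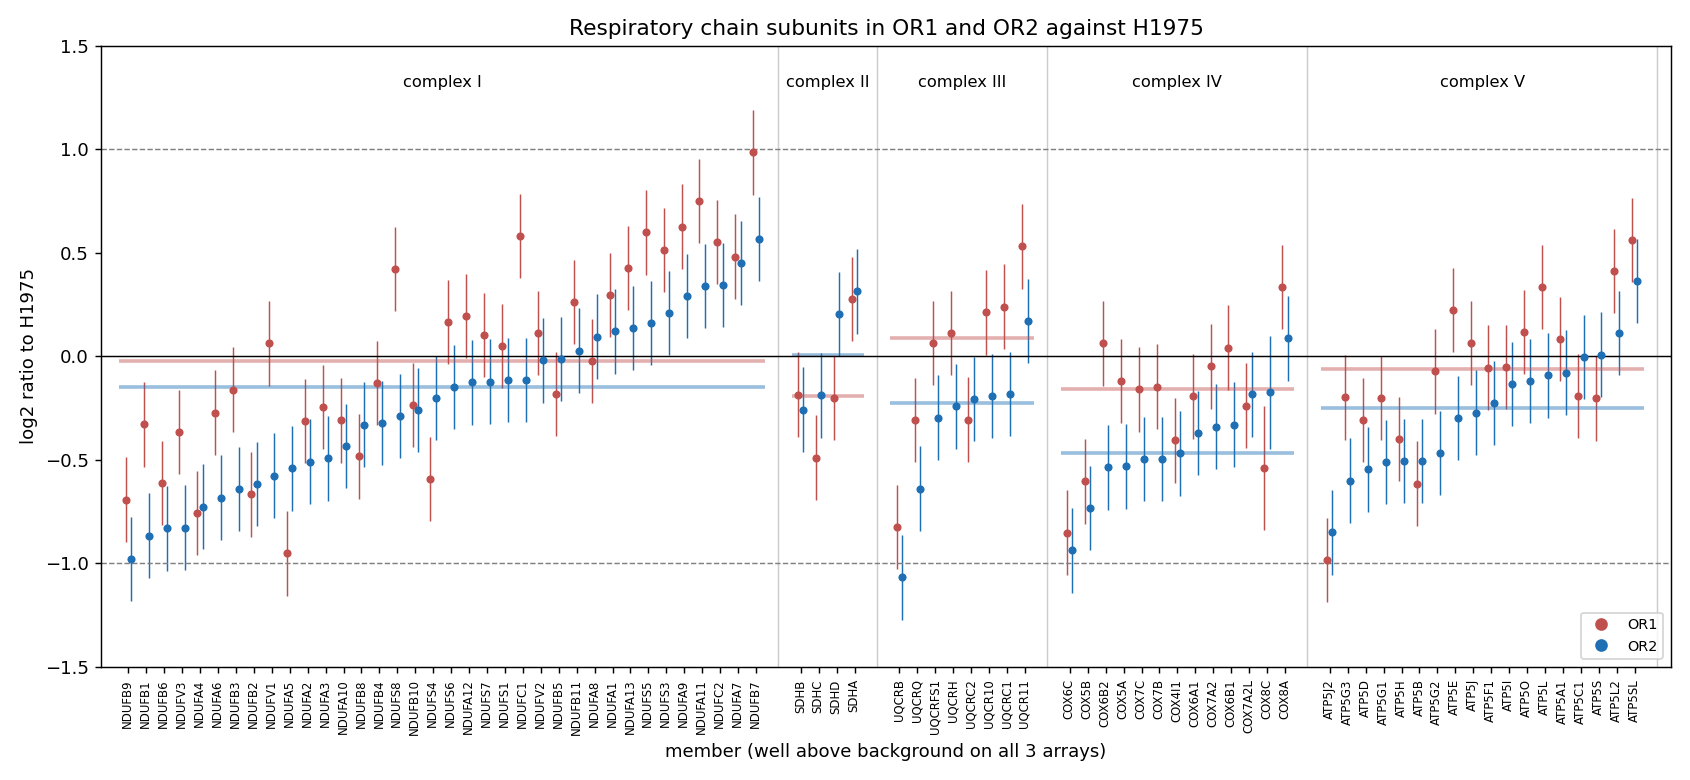
Log2 ratio of OR1 (red) and OR2 (blue) to H1975 for 79 of the 80 measured members, grouped by complex and ordered by OR2 within each. Error bars are technical SDs, thick lines are the medians over all measured members of each complex, and dashed lines mark ratios of 2 and 0.5. UQCRB in OR2 is the 1 point past a dashed line, and the OR2 line of complex IV lies lowest, at -0.47.

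Complex I had medians close to H1975 in OR1, while its outer subunits went both ways. Over its 37 measured members the median ratio was 0.983 in OR1 and 0.903 in OR2, with 19 and 25 members below H1975. As shares these are 51.4% and 67.6%, beside 47.7% and 53.9% of all genes. The 7 nuclear core subunits, which bind NADH, carry the iron-sulfur clusters or shape the ubiquinone pocket, had medians of 1.07 in OR1 and 0.923 in OR2. The 30 supernumerary subunits had medians of 0.887 and 0.852, and the range among them was wider, from 0.517 to 1.98 in OR1. Of these 30, 14 were below and 10 above H1975 by more than their technical SD in OR1, and 15 and 5 were in OR2.

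Among the core subunits, NDUFV1, which binds NADH and its flavin, had scaled intensities of 211, 220 and 141. It was level with H1975 in OR1 and at 0.67 of it in OR2. NDUFV2, an iron-sulfur subunit beside it, stood at 62.9, 68.0 and 62.1, with no difference past its technical SD at this probe. A dimmer probe of NDUFV2 gave ratios of 1.155 and 1.201, beside 1.081 and 0.987 at the brightest. NDUFS1, which holds most of the iron-sulfur clusters of that arm, stood at 42.0, 43.5 and 38.8. It was level in the 3 lines. NDUFS3, a structural core subunit of the quinone-reducing arm, stood at 38.9, 55.4 and 44.9, and both resistant lines were above H1975. NDUFS7, the iron-sulfur subunit next to the ubiquinone pocket, stood at 46.8, 50.3 and 43.0. NDUFS8, the other iron-sulfur subunit of that arm, stood at 125, 167 and 102, above H1975 in OR1 and below it in OR2.

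The widest differences of complex I were in supernumerary subunits. NDUFB7 (NM_004146, chromosome 19 of hg19, 14677745 to 14682759) had scaled intensities of 29.8, 59.0 and 44.1. Its ratios of 1.98 and 1.48 were the highest of all members in both lines. NDUFA11 stood at 90.3, 152 and 114, and NDUFA9, a subunit near the junction of the arms, at 7.27, 11.2 and 8.90. These genes were highest in OR1 and intermediate in OR2.

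At the other end, NDUFA5 (NM_005000, chromosome 7 of hg19, 123181169 to 123181228) had scaled intensities of 26.3, 13.6 and 18.1, and its ratio of 0.517 in OR1 was the lowest of the complex in that line. NDUFB9 (NM_005005, chromosome 8 of hg19, 125562088 to 125562147) stood at 314, 194 and 159, with ratios of 0.618 and 0.507. NDUFB2 stood at 317, 200 and 207, and NDUFB6 at 68.3, 44.6 and 38.4. Both resistant lines lay below H1975 in each of these genes. NDUFB6 had another probe, with ratios of 0.649 and 0.553 beside 0.654 and 0.562.

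A single subunit of complex I had probes that disagreed by more than 2-fold. The brightest probe of NDUFV3, a supernumerary subunit, gave 43.3, 33.6 and 24.4, with ratios of 0.775 and 0.563. Its other probe, on an Ensembl transcript, gave 0.938, 1.73 and 1.70, with ratios of 1.85 and 1.81. The dim probe was above H1975 where the bright one was below it, and which transcripts each detects was not tested. NDUFC2 had a dim probe with ratios of 2.21 and 2.47 beside 1.47 and 1.27 at its bright one, both above H1975.

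Complex II, the enzyme shared with the citric acid cycle, had 4 members and no mitochondrially encoded part. SDHA, the flavoprotein that oxidizes succinate, had scaled intensities of 84.8, 103 and 105. It was above H1975 in both lines, and its 4 probes gave ratios of 1.06 to 1.21 in OR1 and 1.24 to 1.39 in OR2. SDHB, the iron-sulfur subunit, stood at 26.7, 23.5 and 22.4. The membrane anchors SDHC and SDHD stood at 52.4, 37.3 and 46.0, and at 12.6, 10.9 and 14.5. SDHD was lower in OR1 and higher in OR2, each by about its technical SD, and the same held at its 3 probes, with ratios of 0.801 to 0.904 in OR1 and 1.15 to 1.25 in OR2. SDHC had a dim probe on an Ensembl transcript at 0.188, 0.396 and 0.666, with ratios of 2.11 and 3.54, while its 3 RefSeq probes gave 0.676 to 0.773 in OR1 and 0.722 to 1.0 in OR2.

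Complex III held the 1 member past the ratio at its brightest probe. UQCRB (NM_006294, chromosome 8 of hg19, 97244064 to 97244123), a small subunit named for binding ubiquinone, had scaled intensities of 106, 59.8 and 50.5. Its ratios were 0.564 and 0.477, which on the log2 scale are -0.83 and -1.07 with a technical SD of 0.20 each. The difference in OR2 was past 0.5 by less than its technical SD, and quantile normalization put it at -0.84, short of the ratio. Its other probe, on NM_001254752, was dim at 0.170, 0.083 and 0.113, with a ratio of 0.668 in OR2, short of 0.5, and a bound of at most 0.490 in OR1, where it was not well above background. UQCR11, another small subunit, stood at 328, 474 and 369 and was the highest of the complex in both lines. UQCRFS1, the Rieske iron-sulfur protein, stood at 106, 111 and 86.7. UQCRC1 and UQCRC2, the large proteins on the matrix side, had ratios of 1.18 and 0.881, and of 0.808 and 0.867. Over the 8 measured members the median ratio was 1.06 in OR1 and 0.856 in OR2, with 3 and 7 members below H1975. As shares these are 37.5% and 87.5%, beside 47.7% and 53.9% of all genes.

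Complex IV had the lowest median in OR2. Its 13 measured members had a median ratio of 0.895 in OR1 and 0.722 in OR2, with 10 and 12 of 13 members below H1975. As shares these are 76.9% and 92.3%, beside 47.7% and 53.9% of all genes. The 13 include COX6B2, whose probes disagree, COX8C, which is little above background, and the assembly factor COX7A2L. Under quantile normalization the same counts were 10 and 12, and with the trend in brightness taken off they were 11 and 12, at OR2 medians of -0.17 and -0.22 on the log2 scale. COX6C (NM_004374, chromosome 8 of hg19, 100899728 to 100899787) had scaled intensities of 188, 104 and 98.0, with ratios of 0.554 and 0.522, the lowest of the complex. COX5B, the zinc-binding subunit, stood at 132, 86.6 and 79.2. COX4I1, the widely expressed form of the regulatory subunit COX4, stood at 187, 141 and 135. Each of these 3 genes was lower in both resistant lines. COX8A, the widely expressed form of COX8, was the exception at 281, 354 and 298, with ratios of 1.26 and 1.06.

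The restricted forms of complex IV were mostly too dim to measure. COX4I2 (lung), COX6A2 and COX7A1 (muscle) and COX7B2 (testis) were not well above background on any array, at scaled intensities of 0.017 to 0.053, and no ratio was computed. The widely expressed partners COX6A1, COX7A2 and COX7B were measured in all 3 lines, at 327, 286 and 252, at 201, 194 and 159, and at 172, 155 and 122. NDUFA4L2, the hypoxia-induced relative of NDUFA4, was at 0.022 to 0.024 on the 3 arrays and likewise below background, while NDUFA4 itself stood at 386, 228 and 233. At these probes no restricted form was measurable in the parental or the resistant lines.

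The testis forms COX6B2 and COX8C were measured. COX6B2 had scaled intensities of 27.6, 28.8 and 19 at its brightest probe, with ratios of 1.04 and 0.689. Its other probe, elsewhere on the same transcript, gave 0.961, 0.071 and 0.163. At that probe OR1 was not well above background and stood at most at 0.086 of H1975, and OR2 stood at 0.169. The probes of COX6B2 disagreed 12.2-fold or more in OR1 and 4.08-fold in OR2, so a direction for the gene cannot be given. COX6B1, its widely expressed partner, stood at 113, 117 and 90.2. COX8C stood at 0.199, 0.137 and 0.176, little above background.

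Complex V had every true subunit at or below H1975 in OR2 except ATP5L2. Over its 18 members the median ratio was 0.957 in OR1 and 0.841 in OR2, with 11 and 15 members below H1975. As shares these are 61.1% and 83.3%, beside 47.7% and 53.9% of all genes. The count in OR2 was 10 of 18 both under quantile normalization and with the trend in brightness taken off. The F1 head makes ATP. ATP5A1, its alpha subunit, stood at 128, 136 and 121, and ATP5B, the catalytic beta subunit, at 160, 104 and 113. ATP5B was lower in both resistant lines, and alpha was level. The stalk subunits ATP5C1 (gamma) and ATP5D (delta) stood at 20.1, 17.6 and 20.1, and at 41.8, 33.8 and 28.6. ATP5E (epsilon) stood at 575, 671 and 467, above H1975 in OR1 and below it in OR2.

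In the membrane part of complex V, ATP5J2 (NM_001003714, chromosome 7 of hg19, 99055957 to 99057746), subunit f, had scaled intensities of 188, 94.7 and 104. Its ratio of 0.505 in OR1 was the lowest of all members in that line, and its other probe gave 0.513 and 0.550 beside 0.505 and 0.554. The 3 genes for the c-ring, ATP5G1, ATP5G2 and ATP5G3, make the same mature protein. Their ratios were 0.870 to 0.95 in OR1 and 0.659 to 0.723 in OR2, lower in OR2 in all 3. ATP5L2, at 41.0, 54.6 and 44.4, is a near copy of the gene for subunit g, ATP5L, at 361, 454 and 338, and signal shared between such copies cannot be told apart. The highest ratios of the complex, 1.47 and 1.29, belonged to ATP5SL, which is no subunit.

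**Figure D2:**
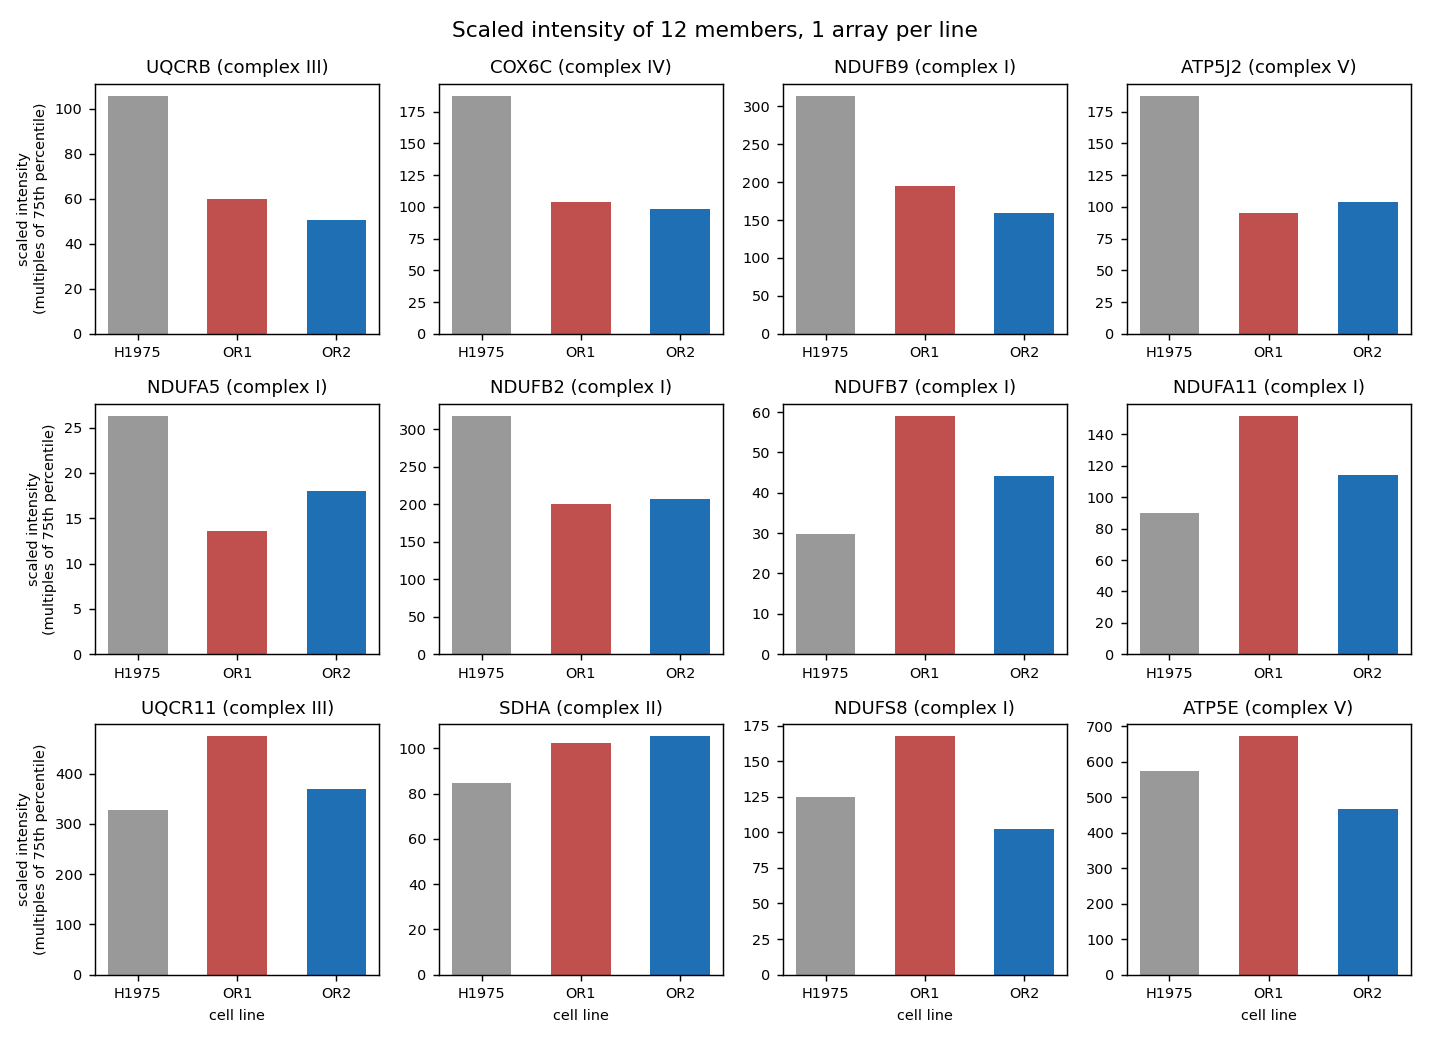
Scaled intensity of 12 members in H1975 (grey), OR1 (red) and OR2 (blue), 1 array per bar, with an axis of its own from 0 in each panel. The first 6 panels are members below H1975 in both lines, such as COX6C at 188, 104 and 98.0. NDUFB7, NDUFA11, UQCR11 and SDHA are above H1975 in both, and NDUFS8 and ATP5E are above it in OR1 and below it in OR2.

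The resistant lines were also set against each other. OR2 was below OR1 in 62 of 80 members, with a median ratio of 0.849, beside 10544 of 18589 genes and a median of 0.956 over all genes. No member differed 2-fold between the lines, and the ratio of OR2 to OR1 ran from 0.612 in NDUFS8 to 1.33 in NDUFA5. Complex II stood apart in direction, with 3 of its 4 members higher in OR2 and a median of 1.12. Complexes I, III, IV and V had medians of 0.855, 0.781, 0.842 and 0.861.

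The lowest members in OR1 lay mainly on chromosomes 7 and 8 and came from several complexes. The 7 members on chromosomes 7 and 8, which belong to complexes I, III, IV and V, were the 7 lowest of all measured members in OR1, and 5 of them were among the 10 lowest in OR2, where the other 5 lay on 5 further chromosomes. On chromosome 7, NDUFA4, NDUFA5, NDUFB2 and ATP5J2 had log2 medians of -0.86 and -0.67, where the 944 other measured genes of the chromosome had -0.55 and -0.36. On chromosome 8, NDUFB9, UQCRB and COX6C had -0.83 and -0.98, where 638 other genes had 0.02 and -0.08. Of the 10 highest members, 5 lay on chromosome 19 in OR1 and 5 in OR2, and 2 and 3 lay on chromosome 11. The 12 members on chromosome 19 had medians of 0.26 and 0.01, beside 0.26 and 0.07 for its 1272 other genes. The 7 members on chromosome 11 had 0.33 and 0.09, beside 0.39 and 0.18 for 1027 other genes. Chromosomes 1, 2, 5 and 12 also held 5 or more members. Members on chromosome 1 had -0.12 and -0.21, beside -0.01 and -0.11 for its other genes. On chromosome 2 they had -0.22 and -0.52, beside -0.12 and -0.19. On chromosome 5 they had -0.23 and -0.35, beside -0.14 and -0.21. On chromosome 12 they had -0.07 and -0.37, beside 0.06 and -0.04. Chromosomes 7 and 8 hold fewer than 5 and were picked after seeing the data.

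The genes next to a member were compared with it in the same way, a comparison chosen after seeing the data. For each member the median log2 ratio of its 20 nearest measured genes that are no members was taken, which reached a median of 0.684 Mb away. Over the 80 members, this value and the member's own ratio correlated with r = 0.73 (Spearman's rho 0.75) in OR1 and r = 0.66 (rho 0.68) in OR2. Without chromosomes 7 and 8, over 73 members, r was 0.62 and 0.59. Both values come from the same arrays, neighbouring members share some of their neighbours, and genes are not independent replicates, so these are descriptions. The 20 genes around ATP5J2 had medians of -1.10 and -0.63, those around NDUFB9 -1.06 and -0.89, and those around UQCRB -0.66 and -0.53. Those around NDUFB7 had 0.49 and 0.24. In 17 of 80 members in OR1 and 25 of 80 in OR2 the ratio had the opposite sign from that of the neighbours, as in SDHD in OR1, at -0.20 where its neighbours had 0.75. Copy number was not measured on these arrays.

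**Figure D3:**
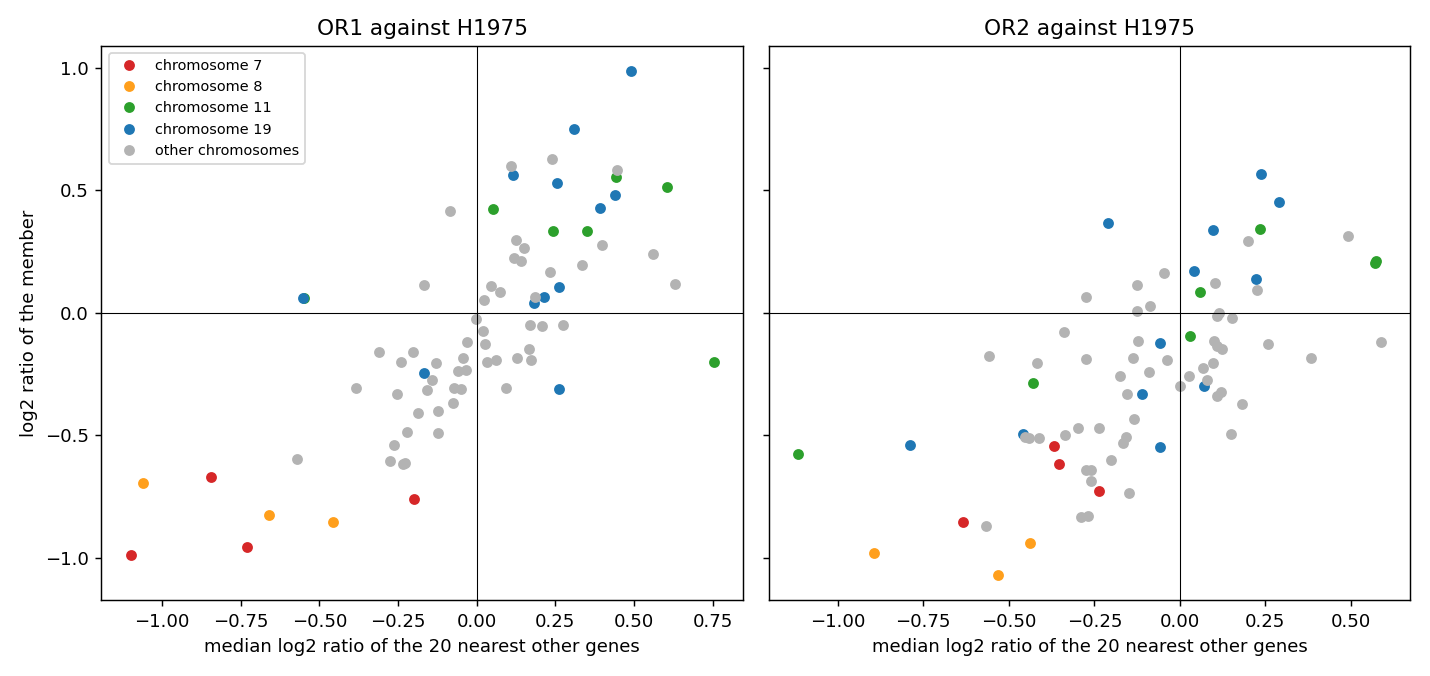
Log2 ratio of each of 80 measured members against the median log2 ratio of its 20 nearest other genes, for OR1 (left) and OR2 (right), both to H1975. Members on chromosomes 7 and 8 gather at the lower left and most of those on chromosomes 11 and 19 at the upper right of the OR1 panel, where r = 0.73. The right panel has r = 0.66.

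Genes related to the respiratory chain that the name rule did not match were taken from fixed lists. The subunits encoded in mitochondrial DNA had 11 genes measured, and all were within 2-fold of H1975. Their median ratio was 0.838 in OR1 and 0.766 in OR2, with 9 and 11 of 11 below H1975, beside 47.7% and 53.9% of all genes. Under quantile normalization 9 and 10 were below. COX1, the catalytic subunit of complex IV, stood at 485, 459 and 323, and CYTB of complex III at 595, 447 and 466. ATP8 of complex V had the lowest ratio in OR1, at 191, 120 and 129. Nuclear copies of mitochondrial DNA resemble these genes, and the probes cannot tell them apart with certainty.

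The assembly factors build the complexes, and those of complex I lay above H1975 more often than below. The 14 measured factors of complex I had a median ratio of 1.23 in OR1 and 1.13 in OR2, with 11 of 14 (78.6%) above H1975 in each line, beside 52.3% and 46.1% of all genes. Among them, 0 were past 2 or 0.5. The 32 measured factors of complexes II to V had medians of 1.11 and 1.06, with 20 (62.5%) and 18 (56.2%) above H1975, nearer to the shares over all genes. In OR1 these directions turned under spike-in scaling, to log2 medians of -0.30 for the factors of complex I and -0.45 for the others, and without scaling the latter was -0.04. COX20 and COA4, which serve complex IV, were at 2.44 and 2.12 in OR1 and at 1.69 and 1.59 in OR2. COX17, the copper chaperone of complex IV, was at 0.578 and 0.524. COX18 and ATPAF1 were below background on all 3 arrays.

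Regulators of mitochondrial biogenesis went both ways. Their 14 measured members had medians of 1.07 and 0.925. In OR2, 6 (42.9%) were below and 3 (21.4%) above H1975 by more than their technical SD, beside 38.4% and 32.2% of all genes. PPARGC1B, a coactivator of this program, stood at 1.68, 1.09 and 0.820, with a ratio of 0.489 in OR2. Its relative PPARGC1A was below background on all 3 arrays. TFAM, which packages and transcribes mitochondrial DNA, stood at 21.3, 21.9 and 18.7. NRF1 stood at 0.760, 0.867 and 0.499, GABPA at 1.20, 1.31 and 1.76, and YY1 at 39.1, 27.5 and 23.8. NRF1, GABPA and YY1, whose motifs are counted below, did not share a direction in OR2.

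Among other electron carriers, 19 genes had medians of 1.05 and 0.929, and cytochrome c itself, CYCS, stood at 48.9, 25 and 30.2. This list also holds the subunits CYC1, with ratios of 1.085 and 0.871, and NDUFAB1, with 0.976 and 0.877. In the citric acid cycle list, 19 genes had medians of 0.986 and 0.931. PDHX, a component of pyruvate dehydrogenase, was past 2 in both lines, at 3.84, 8.61 and 7.84. CS, citrate synthase, stood at 113, 73.0 and 72.3, and MDH2, the mitochondrial malate dehydrogenase, at 140, 70.9 and 81.5. Both were lower in OR1 and OR2. In the glycolysis list, 23 genes had medians of 1.06 and 0.81, with 11 and 18 below H1975. As shares these are 47.8% and 78.3%, beside 47.7% and 53.9% of all genes. LDHA, which makes lactate, stood at 400, 479 and 369, and SLC16A3, which exports it, at 270, 169 and 131. With the brightness trend off, the glycolysis median in OR2 was -0.09 on the log2 scale in place of -0.30.

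**Figure D4:**
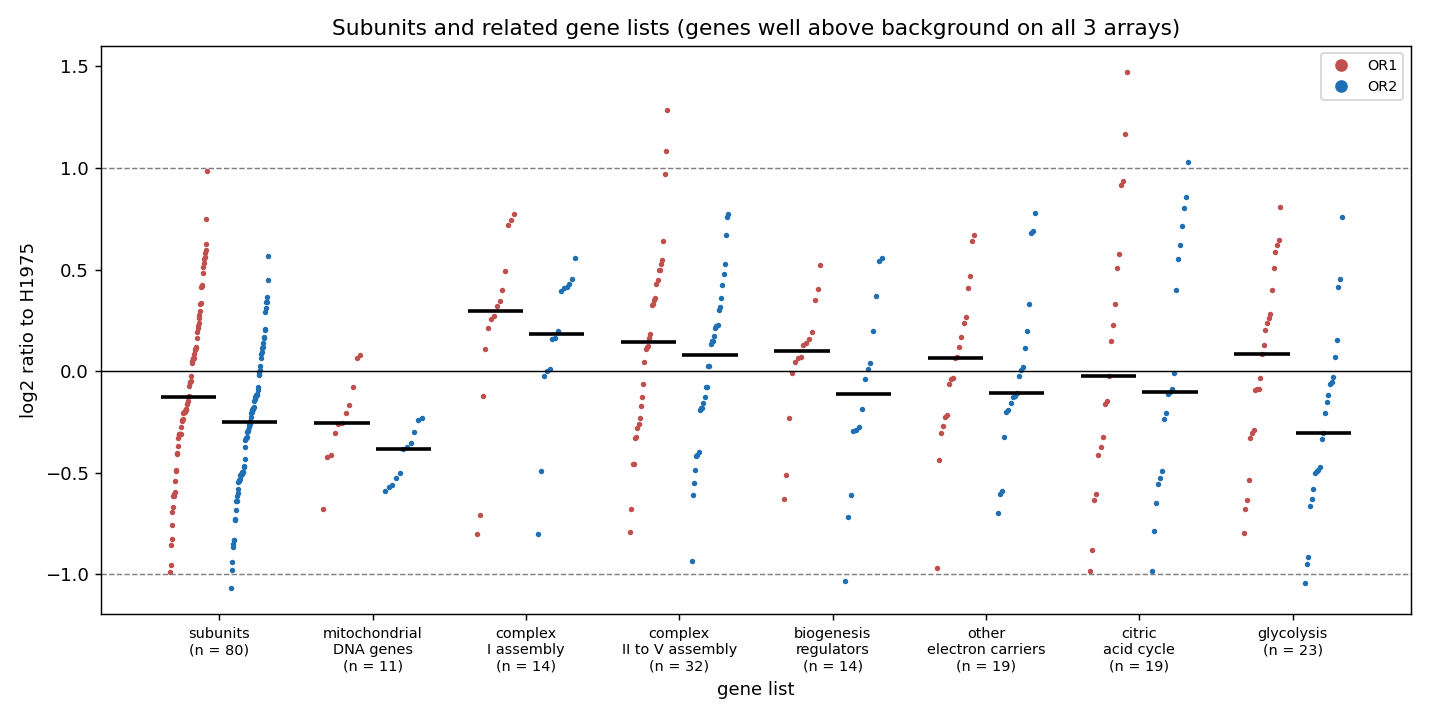
Log2 ratios to H1975 of the subunits and of the genes in 7 related lists, OR1 in red and OR2 in blue, each point a gene measured on all 3 arrays and each black bar a median. Dashed lines mark ratios of 2 and 0.5. The mitochondrial DNA genes lie lowest, with medians of -0.25 and -0.38, and the complex I assembly factors highest, at 0.30 and 0.18.

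Short motifs that the choice by name did not use were more frequent in the members' promoters than in those of all genes with a listed promoter. Most members held none. RefSeq promoters of GRCh38.p14, from 250 bases before to 50 after the start, were listed for 66 of the 80 measured members, older array symbols being matched to current ones. Letters were searched on both strands, and a gene counted if any of its listed promoters held them. GCGCATGC, the core of the NRF1 motif, was present in 14 of 66 members (21.2%), beside 3.68% of 27305 genes with a listed promoter. CCGGAAGT, the motif of ETS factors such as GABPA, was present in 11 (16.7%), beside 4.95% of genes. AAGATGGC, the YY1 motif, was present in 12 (18.2%), beside 3.52%. At least 1 of these motifs was present in 30 of 66 members (45.5%), beside 11.2% of genes, and complex III had no NRF1 match and complex IV no YY1 match. The members counted were all measured, while the genes beside them were not limited to measured ones. The shares were not taken over measured genes or genes of like brightness. Whether the excess is particular to the respiratory chain was therefore not tested. A match is a run of letters and not a bound site. One member with a match is shown for each complex, with the 120 bases up to the start site and the matches in capitals, together with the member highest in both lines, NDUFB7, and NDUFB2, which was low in both, neither of which had a match in this stretch.
NDUFS6 (complex I, chr5:1801287-1801406, plus strand): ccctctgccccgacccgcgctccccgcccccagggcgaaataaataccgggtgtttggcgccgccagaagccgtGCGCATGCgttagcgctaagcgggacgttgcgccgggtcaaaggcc
SDHD (complex II, chr11:112086753-112086872, plus strand): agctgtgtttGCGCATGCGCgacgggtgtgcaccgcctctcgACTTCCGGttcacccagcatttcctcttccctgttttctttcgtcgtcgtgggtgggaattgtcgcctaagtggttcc
UQCRQ (complex III, chr5:132866522-132866641, plus strand): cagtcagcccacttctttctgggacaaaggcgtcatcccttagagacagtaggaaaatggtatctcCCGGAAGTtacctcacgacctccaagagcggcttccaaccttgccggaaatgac
COX5B (complex IV, chr2:97645942-97646061, plus strand): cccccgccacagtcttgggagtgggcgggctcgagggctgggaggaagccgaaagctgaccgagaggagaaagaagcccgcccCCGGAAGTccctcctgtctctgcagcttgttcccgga
ATP5C1 (complex V, chr10:7788057-7788176, plus strand): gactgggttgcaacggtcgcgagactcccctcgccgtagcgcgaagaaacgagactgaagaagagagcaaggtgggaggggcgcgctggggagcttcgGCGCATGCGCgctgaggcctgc
NDUFB7 (complex I, chr19:14572067-14572186, minus strand): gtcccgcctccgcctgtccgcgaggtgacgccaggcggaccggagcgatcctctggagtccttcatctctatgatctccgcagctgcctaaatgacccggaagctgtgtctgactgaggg
NDUFB2 (complex I, chr7:140696588-140696707, plus strand): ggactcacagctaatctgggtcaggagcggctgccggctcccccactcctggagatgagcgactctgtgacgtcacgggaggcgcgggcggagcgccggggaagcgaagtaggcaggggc

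In SDHD and ATP5C1 the NRF1 letters overlapped on both strands. In SDHD an ETS match lay on the reverse strand downstream of them, and NDUFS6 carried a single NRF1 match. UQCRQ and COX5B carried an ETS match. The ratios of members with and without a motif overlapped. The 14 members with the NRF1 letters had log2 medians of -0.16 and -0.27, and the 52 without had 0.06 and -0.23. The 11 with the ETS letters had 0.06 and -0.12, against -0.05 and -0.26 for the other 55. The 12 with the YY1 letters had 0.00 and -0.21, against -0.05 and -0.27 for the other 54.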

How the data were processed

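The authors labeled RNA of each line and hybridized it to 1 array. The authors deposited scanner output, in which spot intensity is background-corrected but carries no scaling between arrays, and also their own normalized intensity per probe. The labels name Agilent Feature Extraction 9.5.1.1 and the file headers 10.7.1.1. Probe positions are those of hg19 in the files.

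Control spots and spots marked as outliers were left out, log2 values of repeated spots were averaged, and the 75th percentile of each array was subtracted. This percentile was 157, 138 and 162 for H1975, OR1 and OR2, and 45.6% to 45.9% of 58200 probes were well above background. The brightest probe stood for a gene. Where a single side of a ratio was not well above background, that side was set to its array's lowest intensity that was, and the ratio is a bound. Ratios of 2 and 0.5 follow the study's methods. Medians cover genes well above background on all 3 arrays.

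Named are members past the ratio, the highest and lowest of each complex, core subunits, pairs of forms, members whose probes disagree by over 2-fold, and genes of related lists past the ratio in both lines. One member is counted throughout but not reported here on its own. Other genes named, including the rest of the related lists and all promoters printed, were chosen after their values were seen. Members and lists were chosen with earlier results of these data known. Of the symbols, 86 were matched to RefSeq. The ratio code was tested on simulated data. The software was limma 3.58.1 in R 4.3.3 and, in Python 3.11.15, pandas 2.3.3, numpy 2.4.6, matplotlib 3.10.9 and scipy 1.17.1.

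Alternatives were scaling by 7 spike-in probes, by the median or not at all, quantile normalization, the percentile over probes well above background, normexp with an offset of 50, the authors' normalized intensities, other choices of probes, spots, members and background filter, and a ratio of 1.5. A running median over 501 genes and the medians without chromosomes 7 and 8 were added after seeing the data.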

Additional observations from a re-analysis of the deposited data

Results flagged for a closer look

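NDUFS8 and ATP5E stood on opposite sides of H1975 in the resistant lines, each by more than its technical SD. NDUFS8, an iron-sulfur core subunit of complex I, stood at a log2 ratio of 0.42 for OR1 against -0.29 for OR2. ATP5E, the epsilon subunit of ATP synthase, stood at 0.22 for OR1 against -0.30 for OR2. Whether OR1 and OR2 differ was not tested, since each has 1 array. Under quantile normalization the values in OR2 were -0.04 for NDUFS8 and -0.08 for ATP5E, and neither was then past its technical SD there.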

How the results depend on the processing

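Of 1220 recomputed values, 1078 moved by less than the technical SD, or for counts by less than 1.5 times, and 142 moved by more. A median was judged by the median technical SD of a single member, 0.20. That exceeded the OR1 medians of all members and of each complex, so these shares say little about the medians. The move of complex I in OR1 from -0.02 to -0.21 without scaling counted among the small ones. The 1 value past 2 or 0.5, that of UQCRB in OR2, kept its sign. Smaller values did change sign. The OR1 log2 median of complex I went from -0.02 to 0.09 under quantile normalization. That of complex III went from 0.09 to -0.51 under spike-in scaling. The members higher by the ratio in OR1 numbered 0, and 1 under quantile normalization, the authors' normalized intensities and the percentile over probes well above background, and 4 at a ratio of 1.5. The members lower in OR1 numbered 0, and 1 under normexp or without a background filter, 2 under median scaling, 4 without scaling, 15 under spike-in scaling and 11 at a ratio of 1.5. The 1 member lower in OR2 became 0 under quantile normalization, spike-in scaling, the authors' normalized intensities, the percentile over probes well above background, with the intensity trend off and without chromosomes 7 and 8. It became 2 under median scaling and 14 at a ratio of 1.5. Members lower in both lines numbered 0, and 1 without scaling and 8 at a ratio of 1.5. At 1.5, 20.2% of all genes were higher and 18.7% lower in OR1, and 20.1% were lower in OR2. For the other alternatives, and for both lines at 1.5, the share of all genes past the ratio was not counted. Under spike-in scaling, where 15 members were lower in OR1, the median over all genes there was -0.56 and 82.2% of them were below H1975.

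Spike-in scaling moved the OR1 median log2 ratio to -0.720 for all members and to -0.62, -0.79, -0.51, -0.76 and -0.66 for complexes I to V. Quantile normalization and the authors' normalized intensities moved the OR2 median to -0.0318 and -0.0319 for all members, to -0.00746 and -0.00721 for complex III, to -0.17 for complex IV under each, and to -0.0315 and -0.0317 for complex V. Taking the intensity trend off moved the OR2 median of complex IV to -0.22. The cause of these shifts was not tested. Of 944 values for named members and lists, 837 moved by less than the technical SD. Of the rest, 43 were under spike-in scaling, 21 each under quantile normalization and the authors' normalized intensities, and 19 with the intensity trend off. With 1 array per line no replicate could be left out. No paired analysis was possible because each line has a single array. Signal over background limited 6 members, which had no ratio.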
